A study of Mus musculus with 36 samples.

Results

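Baseline striatal transcript levels were compared between 2 inbred mouse strains, C57BL/6J and SWR/J, in animals that had received saline only. The comparison rests on 6 Affymetrix whole-genome mouse arrays, 3 for each strain. They come from a set of 36 arrays in 12 groups, in which these strains and DBA/2J and 129P3/J were each given saline, acute morphine or chronic morphine. Each array was hybridized with striatal RNA pooled from 3 adult male mice aged 8 to 10 weeks, so that a group stands for 9 mice. Saline mice were injected 3 times a day for 4 days on the timetable of the chronic morphine groups, and tissue was taken 4 hours after a last saline injection on day 5; neither saline group received morphine. The acute groups were handled in the same way until a single dose of 20 mg/kg of morphine, and the chronic groups received doses that started at 10 mg/kg and ended at 40 mg/kg. A probe set, the group of short probes that reports on 1 transcript, was included when its signal exceeded 99.7 on the linear scale of the table on at least 3 of the 6 saline arrays. This rule, which does not use the direction of a difference, kept 25710 of the 45037 probe sets that are not Affymetrix controls. Of these, 21674 carried 1 gene symbol and represented 12725 of the 18193 genes so named on the whole array, and each gene is described by its probe set of highest mean signal unless others are named.

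The striatum is a forebrain nucleus made up mostly of GABAergic medium spiny neurons, which integrate dopamine input from the midbrain with glutamate input from the cortex and carry opioid receptors. Bundles of myelinated axons run through it, so that its RNA also holds transcripts of oligodendrocytes, beside those of astrocytes, microglia and vessels. Within an inbred strain all mice are genetically almost alike, so that a difference between strains kept under the same conditions is a property of the strain, or of how its pools were prepared and hybridized. Affymetrix probes are short and were designed from public mouse sequence, much of it of C57BL/6J, and a sequence difference under a probe can lower the signal of the other strain with no change in the amount of RNA. The part played by such differences was not tested.

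The arrays were marked by transcripts of the labelled tissue. The dopamine receptors Drd1 and Drd2, the dopamine signaling protein Ppp1r1b, the peptide precursors Penk and Tac1 and the GABA-synthesizing enzyme Gad1 all had log2 signals above 10 on the 6 arrays. None of these 6 genes differed between the strains at an adjusted p under 0.05. Medians of the deposited signal lay between 119 and 129, and 3.82% to 4.07% of the values of an array were at the floor of the table. The array of C57BL/6J replicate 1 stood apart: its 3' minus 5' difference for Gapdh was 0.72 on the log2 scale against -0.04 to 0.05 on the other 5 arrays, and for Actb 1.29 against 0.25 to 0.47. C57BL/6J replicate 2 had a log2 signal of 12.58 for Ttr, a transcript of the choroid plexus, against 10.14 to 10.58 on the other arrays. Transcripts of cortical excitatory neurons also varied from pool to pool, and Slc17a7 read from 7.50 to 9.62 in C57BL/6J and from 8.13 to 9.54 in SWR/J. The number of arrays limits the precision of every value given here, and the spread behind each p-value is that from pool to pool.

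At baseline, 1276 probe sets differed between C57BL/6J and SWR/J at an adjusted p under 0.05 (limma, Benjamini-Hochberg over 25710), which is 4.96% of those tested. Of these, 839 were higher in C57BL/6J (3.26% of those tested) and 437 in SWR/J (1.7%). Differences were mostly small: the median fold of the called probe sets was 1.57, while 292 exceeded 2-fold (173 higher in C57BL/6J and 119 in SWR/J) and 40 and 12 exceeded 4-fold. At the level of genes, 563 of 12725 (4.42%) were called, 415 (3.26%) higher in C57BL/6J and 148 (1.16%) higher in SWR/J, whereas the median difference over all genes was 0.029 on the log2 scale. The values of the 3 arrays of each strain did not overlap in 1221 of the 1276 called probe sets, against 18.2% of all those tested. In 231 tested probe sets, no array of one strain exceeded the signal threshold, and 159 of these were called (99 not detected in SWR/J and 60 not in C57BL/6J). All of them entered through the strain in which they are high. Their arrays could therefore not overlap, though not all were called. When the spread was estimated from the 6 saline arrays alone rather than from all 12 groups, 341 probe sets were called, 238 of them higher in C57BL/6J. Without SWR/J replicate 3 the count was 731.

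Among named genes, the difference with the smallest p was one of lower signal in C57BL/6J. Cap1, which encodes a protein that binds actin and adenylyl cyclase, read 6.87, 6.59 and 6.63 on the C57BL/6J arrays and 10.89, 10.82 and 10.76 on the SWR/J arrays. The values do not come near each other, and the difference, C57BL/6J minus SWR/J, was -4.13 on the log2 scale (SE 0.0854, 17.5-fold, limma adjusted p = 3.84e-24). A second Cap1 probe set gave a difference of -4.26. The other strains sided with SWR/J, with Cap1 means of 10.81 in 129P3/J and 10.86 in DBA/2J. Tmem87a, a membrane protein of the Golgi, followed the same order, with 6.28, 6.86 and 7.18 in C57BL/6J against 9.64, 9.41 and 9.56 in SWR/J (6.79-fold, adjusted p = 1.85e-13). Its means of 9.52 in 129P3/J and 9.32 in DBA/2J again lay with SWR/J.

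In the opposite direction, SWR/J stood alone for Sox2ot and Dmac2l. Sox2ot, a long noncoding RNA that overlaps the neural stem cell factor Sox2, read 9.26, 9.61 and 9.07 in C57BL/6J but 5.79, 5.99 and 5.54 in SWR/J, where no array passed the signal threshold. Measured against that threshold, C57BL/6J was at least 6.38-fold higher (log2 difference 3.54, SE 0.159, adjusted p = 8.08e-16). Dmac2l, which codes for a mitochondrial factor associated with the ATP synthase, read 8.44, 8.60 and 8.66 in C57BL/6J against 5.29, 5.61 and 5.91 in SWR/J, at least 3.81-fold (adjusted p = 4.80e-15). Means of 129P3/J and DBA/2J were 8.71 and 8.66 for Sox2ot and 8.72 and 8.58 for Dmac2l, next to C57BL/6J in both cases. B4galt7, an enzyme in the synthesis of the carbohydrate chains of proteoglycans, gave 8.07, 8.12 and 8.07 in C57BL/6J and 6.31, 5.68 and 5.98 in SWR/J (at least 2.73-fold, limma adjusted p = 3.34e-11). Its probe set is one of those marked by the manufacturer as matching other sequences too. No SWR/J array passed the threshold for Sox2ot, Dmac2l or B4galt7. These genes entered the comparison through C57BL/6J alone, so that their p-values lend no further support.

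Galc, the lysosomal galactosylceramidase that degrades myelin galactolipids, divided the strains in pairs. Its C57BL/6J values were 8.42, 8.39 and 8.30 and its SWR/J values 5.18, 5.12 and 4.69, all below the threshold, which gives at least 3.33-fold (log2 difference 3.38, SE 0.152, adjusted p = 8.23e-16). Galc too entered the comparison through its C57BL/6J arrays alone, so that its p-value lends no further support. Its mean was 8.07 in DBA/2J but 5.39 in 129P3/J. Pttg1, the securin that restrains the separation of sister chromatids, and Efhd2, a calcium-binding protein, were instead high in C57BL/6J alone. For Pttg1 the arrays read 10.95, 10.55 and 10.62 against 7.58, 8.33 and 8.05 (6.60-fold, adjusted p = 3.68e-10), with means of 8.03 and 8.17 in 129P3/J and DBA/2J. For Efhd2 they read 11.24, 11.10 and 11.36 against 9.61, 9.32 and 9.38 (3.47-fold, adjusted p = 1.21e-07), although a second probe set of the gene showed a difference of only 0.30 (adjusted p = 0.395).

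By size of difference among called genes whose arrays do not overlap, the 12 genes furthest above SWR/J included Sox2ot, Galc, Dmac2l, Pttg1, Rpgrip1, B4galt7, Pnma2, Stk25 and Efhd2, beside predicted genes and a probe set assigned to the Mir1931 locus, whose match to the mature microRNA was not established. The 12 furthest below were Cap1, Tmem87a, Eif2ak2, Kcnj9, Cd59a, Pla2g4e, Zbed6, Zfp605, Hddc3, Fhdc1, Agfg2 and Abhd1. Each of these 24 genes remained past the threshold when any single array was left out. On the 6 saline arrays alone 23 of 24 did so, and the exception was Agfg2 (limma adjusted p = 0.0924). As the 24 genes were chosen for large differences on these same 6 arrays, both outcomes were close to fixed in advance and lend no further support. Over the 1276 called probe sets, 601 (47.1%) passed in every one of the 6 fits with an array left out. Nudt19, a peroxisomal coenzyme A hydrolase, and Snapc1, a subunit of the complex that starts transcription of small nuclear RNAs, had smaller differences but were among the 10 genes of smallest p. Nudt19 was 2.26-fold higher in C57BL/6J (10.02, 10.17 and 10.12 against 8.88, 8.92 and 8.97), and Snapc1 2.60-fold (8.93, 8.80 and 8.92 against 7.57, 7.59 and 7.35).

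**Figure D1:**
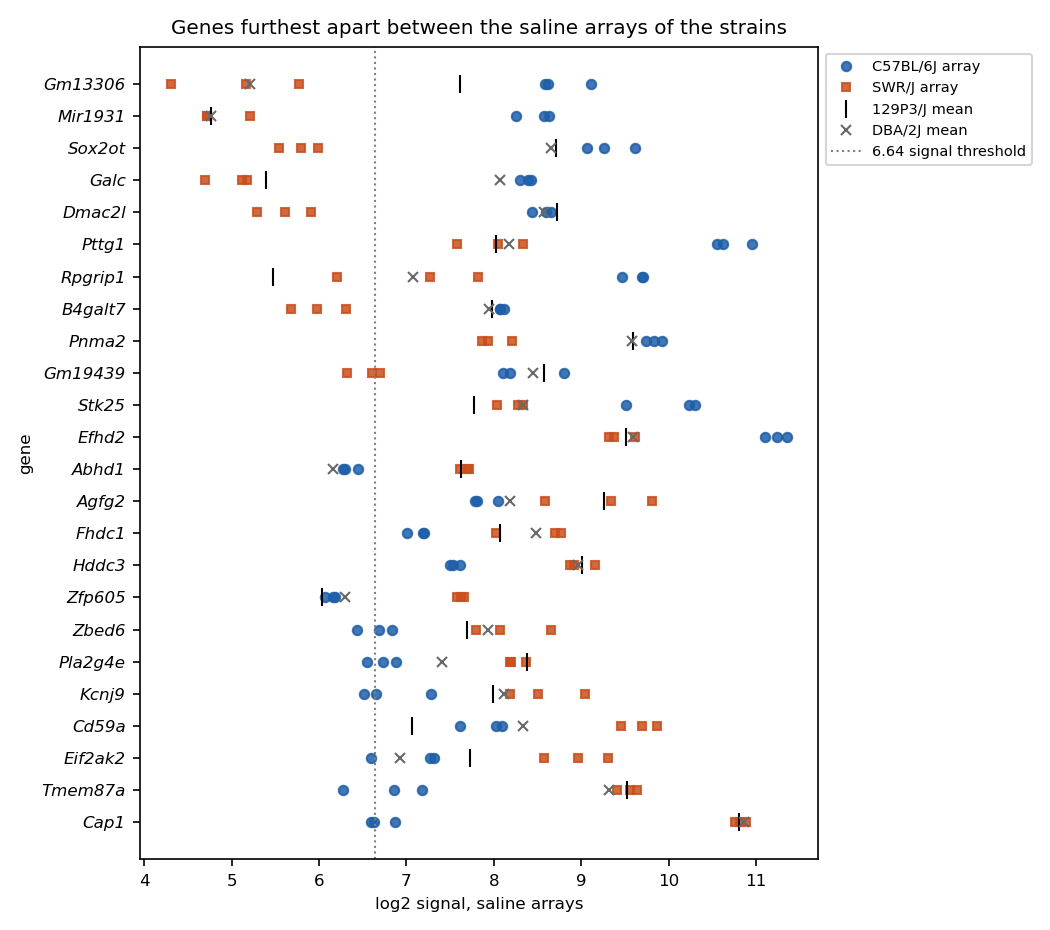
Log2 signal of the 24 genes furthest apart (vertical axis) on the 3 saline arrays of C57BL/6J (circles) and of SWR/J (squares), with the saline means of 129P3/J (bar) and DBA/2J (cross) and the signal threshold (dotted line). Circles and squares do not overlap for any gene; for Cap1 both other strains lie with SWR/J at 10.81 and 10.86, and for Dmac2l with C57BL/6J at 8.72 and 8.58.

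The position of the 2 remaining strains was determined for all 563 called genes by asking on which side of the midpoint between C57BL/6J and SWR/J their saline means fell. Both 129P3/J and DBA/2J were nearer to SWR/J for 302 genes, so that C57BL/6J was the strain apart. They were both nearer to C57BL/6J for 115 genes, 129P3/J alone was nearer to C57BL/6J for 71 and DBA/2J alone for 75. C57BL/6J was apart more often among the genes higher in C57BL/6J (229 of 415) than SWR/J was (84 of 415), and the counts were 73 and 31 of 148 among the genes higher in SWR/J. These are counts over genes chosen for a difference between C57BL/6J and SWR/J. When each pair of strains was compared in its own detected probe sets, the 3 pairs with C57BL/6J, which share its arrays, gave 1256 to 1414 called probe sets, and the 3 pairs without it 720 to 759. The C57BL/6J arrays include replicate 1, the array with the raised 3' minus 5' differences. Its part in these counts was not tested.

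Mice of both strains were also sampled after morphine, in pools that share no animals with the saline pools. Of the 1276 probe sets called at baseline, 1191 (93.3%) had the same sign after acute morphine and 1197 (93.8%) after chronic morphine, against 52.4% and 58.3% of the probe sets not called. The difference itself was called in the same direction in 527 of them after acute morphine, where 3.23% of all probe sets were called, and in 634 after chronic morphine, where 4.17% were. None was called in the opposite direction. These fits share 1 estimate of the spread; on the 6 arrays of each treatment alone, 249 of 341 baseline calls were shared with acute and 227 with chronic morphine. All 3 treatments gave a call in the same direction for 434 probe sets (280 higher in C57BL/6J and 154 in SWR/J), which belonged to 287 named genes. For comparison, 1.45% and 1.78% of all probe sets were called higher in C57BL/6J and in SWR/J after acute morphine, and 2.83% and 1.34% after chronic morphine. Among baseline differences above 2-fold this share was 75% (219 of 292), but among those of up to 1.5-fold it was 12.7% (68 of 536). Of the 24 genes named above, 21 were called in all 3 treatments, the exceptions being Agfg2, Fhdc1 and Zbed6.

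The probe sets had been selected for their difference at baseline, a selection that by itself gives smaller values in other pools. Those higher in C57BL/6J had a median difference of 0.60 at baseline, 0.35 after acute and 0.45 after chronic morphine, and for those higher in SWR/J the medians were -0.75, -0.50 and -0.44. The excess of genes higher in C57BL/6J was not kept in every treatment: 415 against 148 genes were called at baseline and 325 against 159 after chronic morphine, but 141 against 243 after acute morphine. As shares of all genes, these are 2.55% and 1.25% (3.8% in all) after chronic and 1.11% and 1.91% (3.02% in all) after acute morphine. No probe set changed its strain difference between saline and morphine at an adjusted p under 0.05 (interaction contrasts in limma), while 2035 passed an unadjusted p under 0.05 for acute and 1785 for chronic morphine, 7.92% and 6.94% of those tested. Opalin, a myelin gene, was among the genes whose strain difference moved most between saline and chronic morphine, with differences of 0.80 after saline, 0.43 after acute and -0.17 after chronic morphine (limma interaction, saline to chronic, adjusted p = 0.172). The Galc differences are bounds only in all 3 treatments, since its SWR/J means of 5.00, 5.47 and 5.67 lay below the signal threshold. For Hspa1b, an inducible heat shock protein, the differences were -0.75, -0.67 and 0.24 (adjusted p = 0.33).

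**Figure D2:**
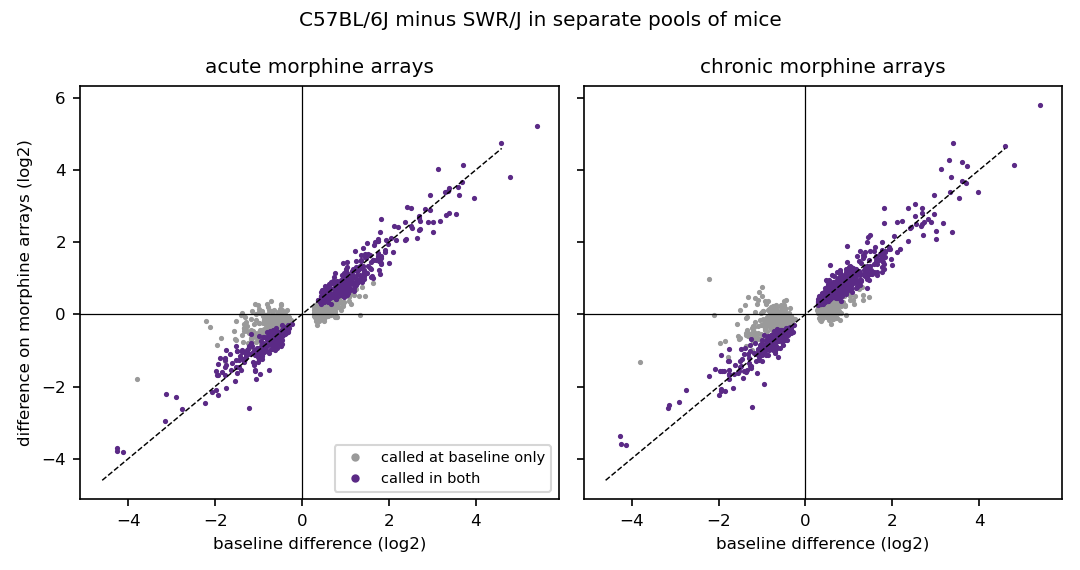
Difference between C57BL/6J and SWR/J (log2) at baseline (horizontal axes) against the difference in acute (left) and chronic (right) morphine arrays for the 1276 probe sets called at baseline, with those called in both comparisons in purple and the line of equal difference dashed. Probe sets called in both, 527 and 634, lie on both sides of zero near the dashed line, and those called at baseline only crowd at small differences.

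Genes with known variants or copy number differences between inbred strains had been collected in a list of 25, of which 15 were measured. In all, 10 were called, 5 higher in each strain, where 3.26% of all genes were higher in C57BL/6J and 1.16% in SWR/J. The list was chosen with earlier results of these data known and holds several of the genes furthest apart. Its share of called genes was thus partly set in advance and lends no further support. Beside Cap1, Galc and Sox2ot, Rpgrip1, a scaffold of the photoreceptor cilium, was 5.74-fold higher in C57BL/6J, at 9.47, 9.69 and 9.71 against 7.82, 6.21 and 7.27 (adjusted p = 2.94e-06). Alad, an enzyme of heme synthesis, read 8.11, 7.94 and 8.27 in C57BL/6J and 9.16, 9.27 and 9.21 in SWR/J (2.15-fold higher in SWR/J, adjusted p = 2.56e-07), and the DBA/2J mean of 9.09 was close to that of SWR/J. Cd59a, which protects cells from lysis by complement, was 3.40-fold higher in SWR/J, and its second probe set differed by -1.64. The interleukin 3 receptor gene Il3ra (log2 difference 0.53) and the vesicle protein gene Syt4 (0.75) were higher in C57BL/6J, but the second Syt4 probe set showed -0.11 (adjusted p = 0.600). Ahr, Glo1, Ide, Nnt and Oprm1 were not called, although 1 of the 4 Glo1 probe sets was (0.57, adjusted p = 0.00244). Nnt, the mitochondrial transhydrogenase, read 9.08, 9.06 and 9.08 in C57BL/6J and 9.28, 9.37 and 9.30 in SWR/J (-0.24, adjusted p = 0.108). Its difference was -0.45 and called in both morphine comparisons (adjusted p = 0.000866 and 0.00085).

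Of 18 measured GABA and glycine receptor genes, 1 was called, against 4.42% of all genes. It was Gabra2, the gene of the α2 subunit of the GABA-A receptor, which read 9.11, 9.30 and 9.05 in C57BL/6J and 10.31, 9.88 and 10.01 in SWR/J, a 1.88-fold lower signal in C57BL/6J (adjusted p = 3.58e-05). Its 4 probe sets all pointed the same way, from -0.55 to -1.14, and 3 of them were called. The means in 129P3/J and DBA/2J, 10.22 and 10.09, were similar to SWR/J. None of 23 glutamate receptor genes was called, and their largest difference was that of Grin3a (0.34, adjusted p = 0.0926).

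Of 33 genes for G proteins and opioid receptor effectors, 4 were called, 2 in each direction, where 3.26% and 1.16% of all genes were called. Kcnj9 encodes GIRK3, a subunit of the potassium channels opened by Gβγ, and was 3.41-fold lower in C57BL/6J (6.65, 6.51 and 7.28 against 8.51, 8.19 and 9.04, adjusted p = 6.99e-06). Gnb1, a Gβ subunit, was also lower in C57BL/6J, with log2 differences of -0.63, -1.51 and -1.99 in its 3 probe sets, all of them called. Gnb4, another Gβ subunit, and Rgs4, which shortens G protein signals, were higher in C57BL/6J (0.71 and 0.35). Kcnj9 and Gnb1 were also called after acute and chronic morphine, Gnb4 after chronic morphine only, and Rgs4 in neither. Among 34 other potassium channel genes, Kcnn1 and Kcnn2, which form calcium-activated channels, were lower in C57BL/6J (-0.75 and -0.72, adjusted p = 0.0485 and 0.00467).

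None of the 8 measured opioid peptide and receptor genes was called at baseline, where 4.42% of all genes were. Pdyn, the prodynorphin gene, read 9.18, 9.00 and 9.28 in C57BL/6J and 8.77, 8.90 and 8.77 in SWR/J (0.34, adjusted p = 0.0523), and was called after chronic morphine (0.35, adjusted p = 0.0473). Oprm1, the μ-opioid receptor, read 7.84, 7.69 and 7.49 against 8.07, 8.17 and 8.04 (-0.43, adjusted p = 0.112), with 0.04 and -0.21 after acute and chronic morphine. The arrays of the strains did not overlap at baseline for these 2 genes or for Oprk1, as for 19.0% of all genes. The differences for Penk, Pomc, Pnoc, Oprk1, Oprl1 and Ogfr lay between -0.29 and 0.20, with adjusted p from 0.247 to 0.892. A p past the threshold was not reached, which does not show that the levels are alike.

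Of 23 genes for dopamine and medium spiny neuron signaling, 2 were called, against 4.42% of all genes. Ddc (0.75) and Maob (0.44), enzymes that make and degrade monoamines, were higher in C57BL/6J, and the list median was -0.04. Drd1 (-0.04), Drd2 (-0.04) and Ppp1r1b (-0.17) were not called. Among 19 transcription factor genes of these neurons only Rxrg, a retinoid receptor, passed (0.53, adjusted p = 0.00154); it passed after acute (0.55) and chronic (0.50) morphine as well. Scn4b, an auxiliary sodium channel subunit abundant in striatal projection neurons, was the one called gene of 26 sodium and calcium channel genes, at 11.67, 11.61 and 11.39 in C57BL/6J against 10.29, 10.57 and 10.22 in SWR/J (2.29-fold, adjusted p = 6.34e-05). Its means in 129P3/J and DBA/2J were 10.44 and 10.38, and it was called after chronic (0.77) but not acute morphine (0.55, adjusted p = 0.130). Of 25 neuropeptide and interneuron genes, Nts, encoding neurotensin, was higher in C57BL/6J (0.64) and the somatostatin receptor gene Sstr2 higher in SWR/J (-0.59); without SWR/J replicate 3 the Nts difference was 0.40 (adjusted p = 0.403). Of 34 vesicle genes, Syt4 alone was called, and of 30 postsynaptic genes Lrrtm2 alone (-0.59, adjusted p = 0.0339).

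**Figure D3:**
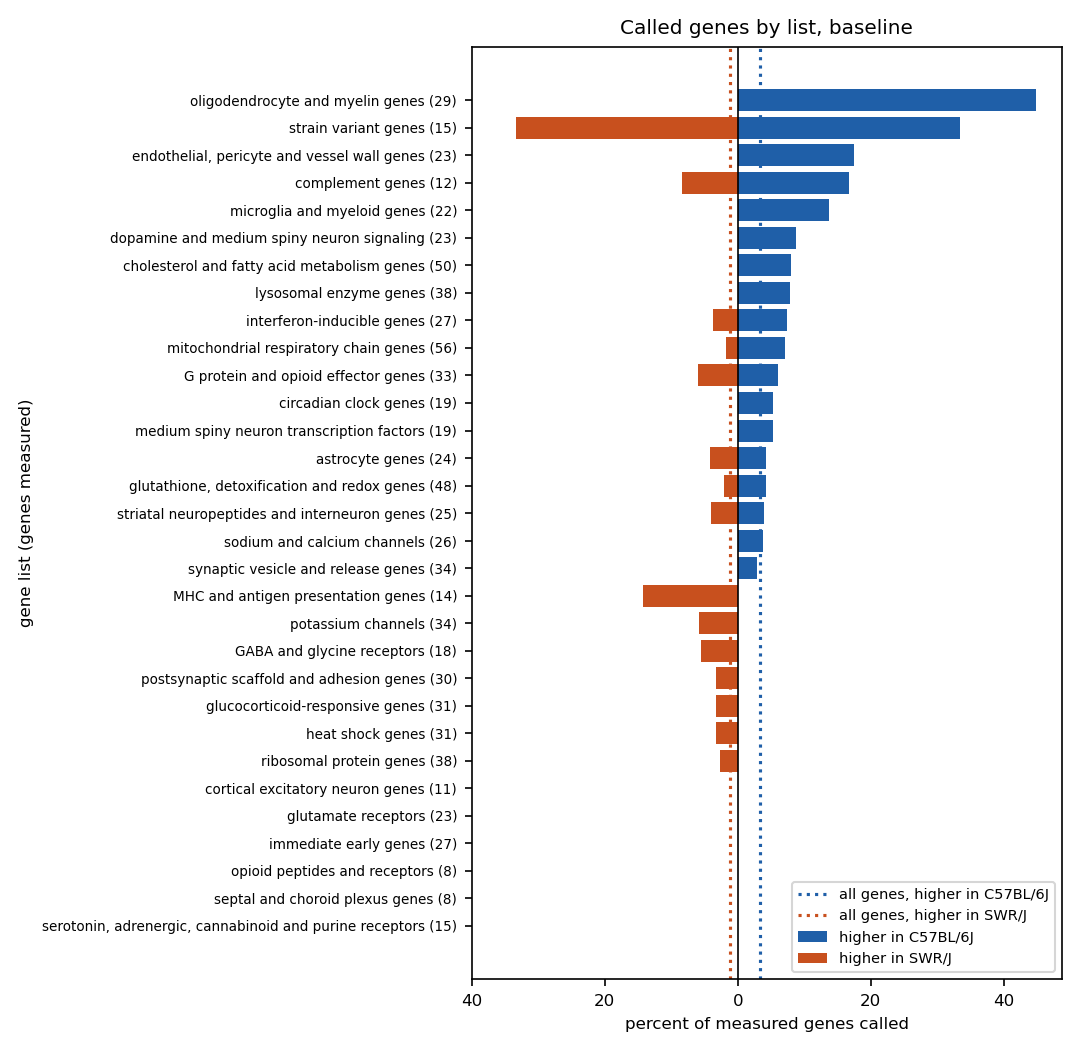
Percent of the measured genes of each list (number in parentheses; lists with at least 8) that were called higher in C57BL/6J (right) or higher in SWR/J (left) at baseline, with the share of all 12725 genes as dotted lines (3.26% and 1.16%). Oligodendrocyte and myelin genes extend furthest to the right (13 of 29), strain variant genes to both sides (5 and 5 of 15), and opioid and glutamate receptor lists have no called gene. The lists were chosen with earlier results of these data known.

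Of the oligodendrocyte and myelin genes, 13 of 29 measured were higher in C57BL/6J, where 3.26% of all genes were, and none was higher in SWR/J. The 13 include Galc, which entered through C57BL/6J alone. With only probe sets detected in both strains, 12 were called. The median difference of the 29 genes was 0.34, compared with 0.029 over all genes. The called members belong to several steps of myelin formation. Ugt8a (0.63), Fa2h (0.48) and Gal3st1 (0.38) synthesize and modify the galactolipids that Galc degrades, and Aspa (0.62) releases acetate from N-acetylaspartate. Opalin, Mag, Mal, Cldn11, Tspan2 and Cnp code for proteins of the myelin membrane, Olig1 is a lineage transcription factor and Qdpr regenerates tetrahydrobiopterin. Cnp read 12.05, 12.19 and 11.85 in C57BL/6J and 11.69, 11.51 and 11.32 in SWR/J (1.44-fold, adjusted p = 0.00154), Mag 10.48, 10.93 and 10.55 against 10.15, 10.31 and 10.05 (1.40-fold, adjusted p = 0.0183), and Opalin 9.58, 9.76 and 9.50 against 9.03, 8.54 and 8.88 (1.74-fold, adjusted p = 0.000233). None of these 3 genes overlapped between the strains, but they were picked among called genes, and 95.7% of all called probe sets did not overlap. Of all genes tested, 19.0% did not. In addition, 1 of the 3 Cnp probe sets gave a difference of 0.03 (limma adjusted p = 0.962). Mbp, a main structural protein of myelin, read 12.61, 12.73 and 12.64 against 12.67, 12.64 and 12.60 (0.02, adjusted p = 0.917), and Sox10 and Myrf, transcription factors of the lineage, were not called (0.12 and 0.17). In RNA from whole tissue, more cells of a type and more RNA per cell cannot be told apart.

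The promoters of Cnp, Mag and Opalin are shown because these myelin genes were higher together in C57BL/6J and their windows hold the letters marked below, for which they were chosen. The windows are RefSeq sequence of GRCm38.p6, the C57BL/6J reference, and cover 250 bases before to 50 bases after the start of the gene; sequence of SWR/J was not used here. Cnp lies at chr11:100574689-100574988 on the plus strand, Mag at chr7:30914814-30915113 and Opalin at chr19:41077064-41077363, both on the minus strand. Capitals mark ACAAAG or its reverse complement CTTTGT, the core bound by SOX factors, a family that includes the oligodendrocyte regulator Sox10.
Cnp: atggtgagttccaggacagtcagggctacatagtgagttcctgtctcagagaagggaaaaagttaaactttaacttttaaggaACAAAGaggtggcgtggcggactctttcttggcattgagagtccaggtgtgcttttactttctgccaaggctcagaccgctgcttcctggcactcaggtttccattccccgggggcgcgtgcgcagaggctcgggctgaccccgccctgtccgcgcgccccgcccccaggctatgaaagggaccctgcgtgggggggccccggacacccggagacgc
Mag: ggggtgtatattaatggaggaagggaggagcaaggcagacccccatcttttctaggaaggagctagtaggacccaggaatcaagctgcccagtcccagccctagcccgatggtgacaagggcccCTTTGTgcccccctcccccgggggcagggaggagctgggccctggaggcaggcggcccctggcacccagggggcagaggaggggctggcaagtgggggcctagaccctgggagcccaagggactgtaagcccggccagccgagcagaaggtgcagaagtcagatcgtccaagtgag
Opalin: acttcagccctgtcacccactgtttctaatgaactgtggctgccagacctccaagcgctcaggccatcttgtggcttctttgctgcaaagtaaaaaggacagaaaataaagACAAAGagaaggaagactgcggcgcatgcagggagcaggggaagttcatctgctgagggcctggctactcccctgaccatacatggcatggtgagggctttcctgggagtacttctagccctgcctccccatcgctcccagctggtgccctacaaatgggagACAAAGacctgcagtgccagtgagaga
The letters occurred 1 time each in the Cnp and Mag windows and 2 times in that of Opalin. By gene, they were found on either strand in 4 of 11 called myelin genes that had an entry (36.4%) and in 3 of 12 list members not called (25%). By window, they were found in 5 of 16 (31.2%), in which 2 overlapping Mag windows share 1 copy and another Mag window (chr7:30914272-30914571) has none, in 4 of 16 windows of the list members not called (25%) and in 18.7% of all 32851 windows of 300 bases. A match of 6 letters describes the window only.

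The myelin difference was smaller, though of the same sign, in the other pools. The mean level of the 29 genes, centred over the 18 arrays of both strains, was 0.25, 0.49 and 0.27 in the C57BL/6J saline pools and -0.03, -0.07 and -0.15 in those of SWR/J. It was 0.10, 0.08 and 0.07 against -0.22, -0.07 and -0.20 after acute morphine, and -0.07, 0.19 and 0.01 against -0.28, -0.11 and -0.26 after chronic morphine. The 2 strains did not overlap in any treatment, although after chronic morphine the nearest arrays lay at -0.07 and -0.11. The mean includes Galc, which had by far the largest difference of the list (3.38 at baseline). A mean without Galc was not computed, so its part in the separation was not tested. Of the 29 genes, 1 was called higher in C57BL/6J after acute morphine, where 1.11% of all genes were, and 3 after chronic morphine, where 2.55% were. The list medians were 0.17 and 0.20. Galc was called in both and was the only member called after acute morphine, and Mag and Gjb1 were called after chronic morphine. C57BL/6J replicate 2, which had the highest myelin mean, was also the pool with the high Ttr signal and had a mean for cortical excitatory neuron genes of -0.42, compared with -0.36 and 0.13 in the other C57BL/6J pools and -0.32, -0.12 and 0.23 in SWR/J. The part of these in the myelin difference was not tested. Without C57BL/6J replicate 2 the list median was 0.24 and 5 members were called; 5 were also called without SWR/J replicate 3, 8 without C57BL/6J replicate 1 or SWR/J replicate 2, and 2 when only the 6 saline arrays entered the fit.

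**Figure D4:**
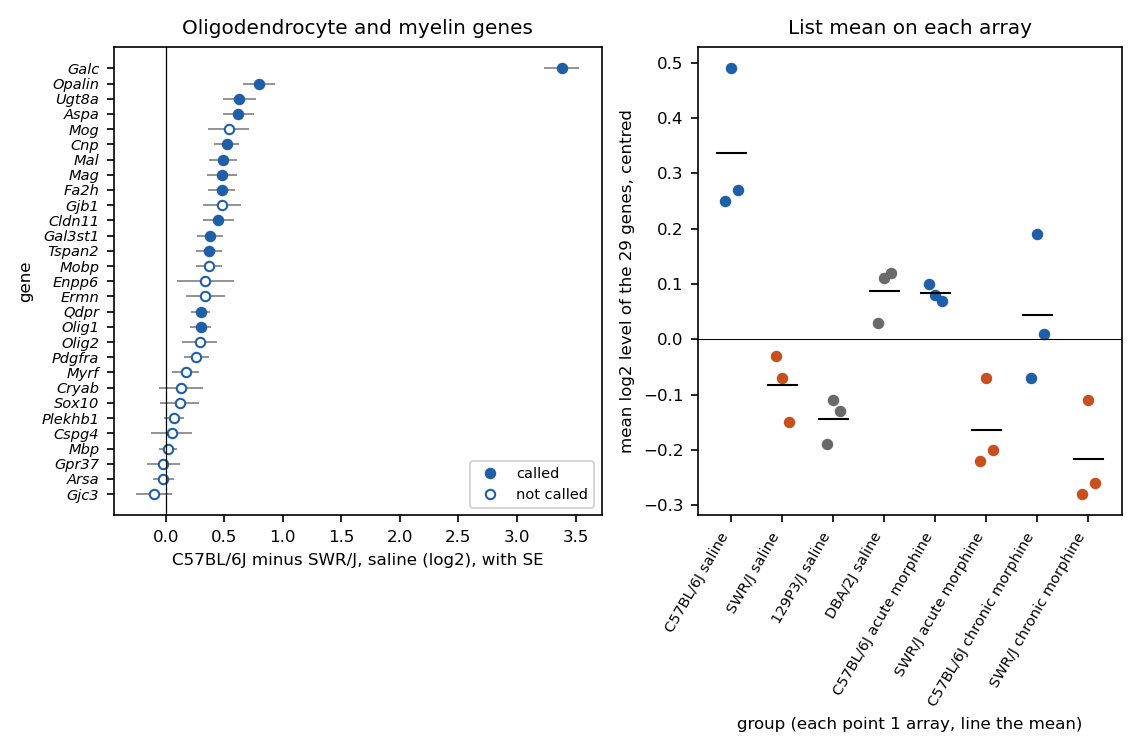
Left, difference between C57BL/6J and SWR/J at baseline with its SE for each of the 29 oligodendrocyte and myelin genes (filled, called); right, mean log2 level of the 29 genes on each array, centred over the 18 arrays of both strains, by group, with the group mean as a line. Galc stands at 3.38 and most other genes between 0 and 0.80; the C57BL/6J saline arrays (0.25 to 0.49) lie above the SWR/J saline arrays (-0.15 to -0.03).

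Immune genes split in direction. Of the complement genes, C1qb and C1qc, 2 of the chains of C1q, were higher in C57BL/6J and were called in all 3 treatments. C1qb read 9.79, 9.77 and 9.99 against 8.58, 8.77 and 9.01 (2.09-fold, adjusted p = 9.98e-06) and its 2 other probe sets differed by 0.95 and 1.16; C1qc was 2.14-fold higher (adjusted p = 0.00022). C1qa, the chain that joins them, was not called, at 9.06, 10.04 and 10.23 against 9.61, 9.88 and 9.83 (adjusted p = 0.995). Among 22 microglia and myeloid genes, 3 were higher in C57BL/6J and none in SWR/J, where 3.26% and 1.16% of all genes were. They were the Fcγ receptor gene Fcgr3 (8.17, 8.01 and 8.07 against 6.43, 6.94 and 7.19, 2.35-fold), Ly86 (1.74-fold) and Tyrobp (1.41-fold). Of the markers that define microglia, Csf1r (0.26), Cx3cr1 (-0.30), P2ry12 (-0.25), Tmem119 (-0.13) and Aif1 (-0.52, the lowest of the list) were not called, although a second Cx3cr1 probe set was lower in C57BL/6J (-0.76, adjusted p = 0.0297). In the list, 14 of the 22 genes had a positive difference, with a median of 0.16. Fcrls, a microglial Fc receptor-like gene outside the list, was 2.69-fold higher in C57BL/6J (8.32, 8.70 and 8.42 against 7.08, 7.04 and 7.03, adjusted p = 6.58e-06) and was called after acute (1.17) and chronic (0.72) morphine. The list mean lay between 0.07 and 0.20 in the C57BL/6J saline pools and between -0.03 and 0.01 in those of SWR/J. After acute morphine 2 list genes were called higher in C57BL/6J and 1, Aif1, higher in SWR/J (-0.65, limma adjusted p = 0.0408), where 1.11% and 1.91% of all genes were. After chronic morphine 1 was called higher in C57BL/6J, where 2.55% of all genes were. The list median was then -0.01, 9 of the 22 genes had a positive difference, and the list means of the strains overlapped.

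In SWR/J, the antigen-presenting class I genes H2-D1 and H2-K1 were higher in their probe sets of highest signal (-0.63 and -0.58, adjusted p = 0.0252 and 0.00664). Of the other H2-D1 probe sets, 2 gave -0.61 and -0.90 and 1 gave 0.13, and those of H2-K1 gave 0.26 and 0.32. These genes belong to a family of near-identical sequence, so that their direction is uncertain. Eif2ak2, the kinase PKR that senses double-stranded RNA, read 6.60, 7.32 and 7.27 in C57BL/6J and 8.96, 8.58 and 9.31 in SWR/J (3.69-fold higher in SWR/J, adjusted p = 1.59e-07). Of the 27 interferon-inducible genes measured, Ifitm3 (0.51) and Ifit3 (0.92) were higher in C57BL/6J, where 3.26% of all genes were.

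Several metabolic enzymes differed singly, where 3.26% of all genes were called higher in C57BL/6J and 1.16% higher in SWR/J. Ndufs5, a subunit of respiratory complex I, read 10.70, 10.71 and 10.73 in C57BL/6J and 9.38, 9.70 and 9.56 in SWR/J (2.24-fold, adjusted p = 2.02e-07), and the DBA/2J mean of 10.66 was close to C57BL/6J. Beside Ndufs5 and Dmac2l, Ndufa12 (0.35) and Cox6c (0.29) were higher among 56 respiratory chain genes and Sdhc lower (-0.24), and the list had a median of 0.09. Ndufa12 and Cox6c had further probe sets that were not called. Aldh1a1, a retinaldehyde dehydrogenase, was 3.03-fold higher in C57BL/6J, at 8.44, 8.64 and 8.84 against 7.04, 7.02 and 7.05 (adjusted p = 4.54e-07), and SWR/J was the strain apart, since the means of 129P3/J and DBA/2J were 8.61 and 8.45. Of the 48 redox genes, extracellular superoxide dismutase, Sod3, was also higher in C57BL/6J (0.72) and glutathione reductase, Gsr, lower (-0.59). The lysosomal proteases Ctsh (1.10) and Ctsl (0.35) and, among 50 lipid genes, the sterol enzymes Hmgcs1 (0.37), Idi1 (0.44) and Sqle (0.41) and the elongase Elovl6 (0.44) were higher in C57BL/6J. Of these 4 lipid genes none was called after acute morphine.

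Of 23 vessel genes, 4 were higher in C57BL/6J and none in SWR/J, where 3.26% and 1.16% of all genes were, with a median of 0.20: Vwf (0.94), Tagln (0.59), Abcb1a (0.47) and Tek (0.37). In the morphine pools, Vwf and Tagln were called higher in C57BL/6J after chronic morphine, where 2.55% of all genes were. After acute morphine none of the 23 was called higher in C57BL/6J and 1 was higher in SWR/J, where 1.11% and 1.91% of all genes were. Among 24 astrocyte genes, Slc1a2 (0.30) was higher and Slc7a10 (-0.31) lower in C57BL/6J, and the median was 0.04; without C57BL/6J replicate 1 the Slc7a10 difference was -0.21 (adjusted p = 0.214). Among red blood cell genes, 4 were measured and Slc4a1 was lower in C57BL/6J (-1.02, limma adjusted p = 0.0285). At baseline the list mean was between -0.13 and 0.05 in C57BL/6J and between 0.21 and 0.57 in SWR/J. This order was not kept: the strains overlapped after acute morphine. After chronic morphine the list mean was 0.06 to 0.28 in C57BL/6J and -0.38 to -0.23 in SWR/J. Cortical, septal and choroid plexus lists had no called gene.

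Of 31 glucocorticoid-responsive genes 1 was called, and 4.42% of all genes were. Zbtb16, a transcription factor, was lower in C57BL/6J at baseline (7.88, 8.11 and 8.78 against 9.54, 9.23 and 9.84, adjusted p = 0.00593), with differences of -0.22 and -0.54 after acute and chronic morphine that were not called. Hspa1b was the only called gene of 31 heat shock genes, and its 3 probe sets were all higher in SWR/J (-0.75, -0.87 and -1.11), whereas Hspa1a was not called (0.29, adjusted p = 0.422) but was higher in C57BL/6J after chronic morphine (1.30, adjusted p = 8.61e-06). The pair of genes is nearly identical in sequence. No immediate early gene of 27 was called at baseline, where 4.42% of all genes were, and Egr2 (0.39) and Homer1 (0.38) lay furthest from 0. After chronic morphine 5 were called higher in C57BL/6J, where 2.55% of all genes were. The clock gene Npas2 was higher in C57BL/6J (0.51, adjusted p = 0.0019). Of 38 ribosomal protein genes, Rps2 alone was called (-0.29). Among the receptors for serotonin, noradrenaline, cannabinoids and purines, none of 15 genes was called; Htr2c (0.34) and Mgll (-0.27), which degrades an endocannabinoid, differed most in their brightest probe sets, and another Mgll probe set was called (-0.72, adjusted p = 0.0439).

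Probe sets of one gene did not always move together. Of 5492 genes with at least 2 probe sets, 601 had a called one and 110 had 2 or more; in 94 of these all called probe sets had the same direction, and in 16 they opposed each other. Cfl2, an actin-severing cofilin, was lower in C57BL/6J in its brighter probe set (-0.54, adjusted p = 0.00207) and higher in the other (1.53, adjusted p = 1.48e-07), and both calls recurred after acute and chronic morphine. Dpy19l3 (-0.69 and 0.91) and Vps52 (-0.56 and 2.00) showed the same kind of stable opposition. In Foxp1, a transcription factor of medium spiny neurons, the brightest probe set was not called (-0.11, adjusted p = 0.727), 2 others were lower in C57BL/6J (-0.98 and -0.79) and 1 was higher (1.24); of these 3 calls, only the last recurred, after chronic morphine. The first of them read 6.57, 7.95 and 7.79 in C57BL/6J against 8.67, 8.23 and 8.34 in SWR/J. Without C57BL/6J replicate 1, the lowest array, the 3 differences were -0.54, -0.57 and 0.84, and only the last was still called (adjusted p = 0.268, 0.0596 and 0.0113). Ttc14, Klc1, C2cd5 and Rragd were the remaining genes of the 8 with the strongest opposition. In Klc1, the probe set lower in C57BL/6J read 7.47, 9.16 and 9.61 against 9.80, 9.95 and 10.00 (-1.17). The lowest value came from C57BL/6J replicate 1, the array with the raised 3' to 5' differences; without that array the difference was -0.53 (adjusted p = 0.0977). It was -0.12 and 0.07 after acute and chronic morphine.

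**Figure D5:**
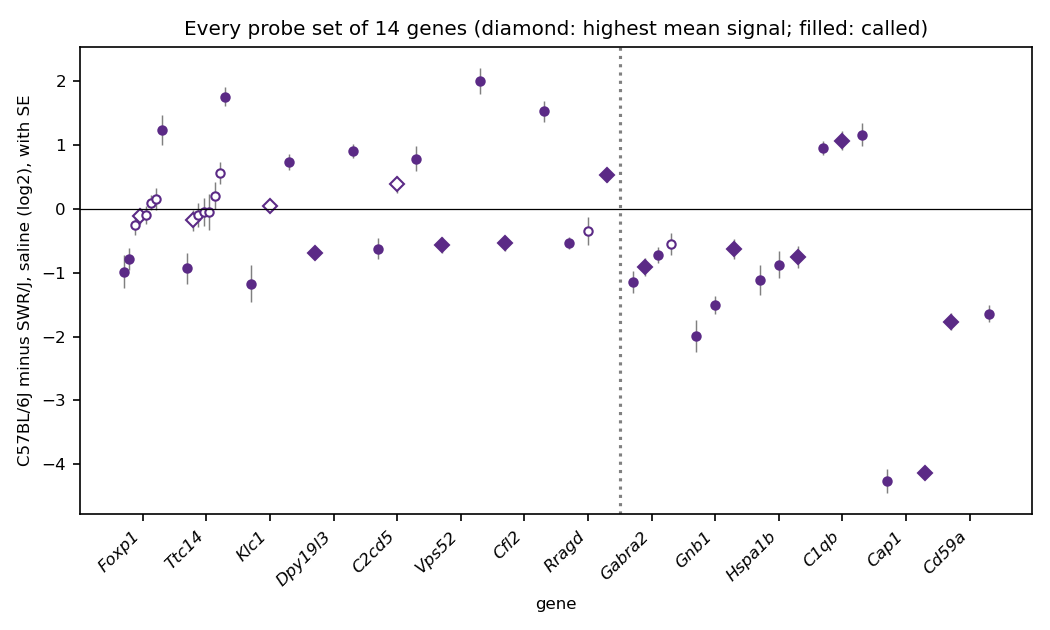
Difference between C57BL/6J and SWR/J at baseline (log2) with its SE for every probe set of 14 genes, filled where called and drawn as a diamond for the probe set of highest mean signal; the 8 genes left of the dotted line have called probe sets in both directions. Right of the line, the called probe sets of a gene share a direction, as for Gabra2 (-0.55 to -1.14) and Cap1 (-4.13 and -4.26).

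The place of the called genes in the genome was compared through their neighbours. Along the RefSeq gene order, 49 of 561 called genes that could be placed (8.73%) had a called gene as next measured neighbour, and 8.54% of all 12699 placed genes did.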

How the data were processed

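Striatal RNA from 36 pools of mice was hybridized to Affymetrix arrays, and 6 of them, the saline pools of C57BL/6J and SWR/J, form the comparison. The deposited table holds intensity values on a linear scale with a floor of 6.69 and 2 missing values. The methods name several normalizations (RMA, the model-based index of dChip and PDNN), and which of them the table carries is not given in the sources used here. The authors' present calls were not used here.

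The log2 of the deposited values was fitted with limma 3.58.1 (R 4.3.3) with 12 group means over 36 arrays (24 residual degrees of freedom), and p-values were adjusted by Benjamini-Hochberg over 25710 probe sets. A difference is C57BL/6J minus SWR/J, and called means an adjusted p under 0.05. The scripts were tested on simulated data. Of the probe sets, 21674 had 1 symbol, 566 several and 3470 none in the platform annotation, updated through Entrez numbers to RefSeq. Where no array of a strain exceeded the signal threshold, "at least" folds compare the brighter mean with the higher of that threshold and the dimmer mean. Tables were handled in Python 3.11.15.

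The members and the 33 gene lists were chosen with earlier results of these data known. Named genes were the 12 furthest apart in each direction among called genes whose arrays do not overlap, the 10 of smallest p, up to 4 called members of a list or else the 2 of largest difference, all measured strain variant and opioid genes, up to 8 genes with opposed probe sets and 8 with the largest interactions, and genes named in the study; label checks and the members of the myelin list were added after their values were seen. Alternatives changed the arrays, the filter, the scaling, the threshold and the model. The replicate numbers were not taken as pairs.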

Additional observations from a re-analysis of the deposited data

How the results depend on the processing

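The number of called probe sets depended on the fit more than on the scaling. Against 1276 at baseline (839 higher in C57BL/6J and 437 in SWR/J), an adjusted p under 0.01 gave 717 (487 and 230), the 6 saline arrays alone 341 (238 and 103) and the 12 saline arrays of the 4 strains 764 (525 and 239). With any 1 array left out the counts ranged from 731 to 1606 (474 to 1134 and 257 to 643), the lowest without SWR/J replicate 3. The replicate block gave 2526 (1551 and 975) as a random block and 138 (99 and 39) as a fixed one; same-numbered pools correlated at -0.149, -0.246 and 0.32, so that the numbers are not taken as pairs. Over all 12 groups the consensus correlation of same-numbered pools within a treatment was 0.246, and cortical excitatory genes were lowest in replicate 1 in 7 of the 8 groups scored (not in saline C57BL/6J). After acute morphine (830 called), an adjusted p under 0.01 gave 487, the 6 arrays of that treatment alone 529 and the random replicate block 1430; after chronic morphine (1073 called) the counts were 638, 428 and 1781. The interaction with chronic morphine, with 0 calls, had 12 with the random replicate block and 0 to 12 with 1 saline array left out, 12 of them without C57BL/6J replicate 3.

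Alternatives for the 2 glial lists and for probe sets of 1 gene with opposed calls were chosen after seeing the data. The 13 called myelin genes became 2 on the 6 saline arrays, 5 on the 12 saline arrays and 8 without a filter. They became 12 with only probe sets detected in both strains, 1 with the fixed replicate block and 5 to 14 with 1 array left out. The 3 microglia genes higher in C57BL/6J became 7 with the random and 0 with the fixed replicate block and 2 to 4 with 1 array left out; 1 was higher in SWR/J with the random block and with the mean over all probe sets of a gene. Of 1717 values of named genes under alternatives, 1462 kept direction and side of the threshold, 244 lost the call, 6 gained it and 5 changed sign: Ide (-0.05 to 0.00 with 1 array left out, 0.00 without C57BL/6J replicate 3 and without SWR/J replicate 1), Ogfr (-0.01 to 0.12) and Penk (-0.01 to 0.14), both lowest without SWR/J replicate 3, and Pnoc (-0.42 to 0.03, highest without SWR/J replicate 2). The cause was not tested. Genes near the signal threshold have little signal above background, and their folds are understated.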
